A study of Mus musculus with 6 samples.

Results

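The cells described here were tenocyte-like cells of mouse Achilles tendon, the fibroblasts that build and keep up the collagen fibers of tendon. They were chosen by their counts of unique molecular identifiers (UMIs, 1 per captured transcript molecule) in single-cell RNA-seq. A barcode entered when it held at least 1000 UMIs and 200 genes with at most 5% mitochondrial UMIs, at least 1 UMI of *Scx*, no UMI of *Ly6a*, *Ptprc* or *Cdh5*, fewer than 5 UMIs of *Col2a1*, and *Fmod* at 0.1% or more of its UMIs. This gave 962 cells among the 63329 barcodes past the quality limits and the 84194 in the files. *Scx* (the tendon transcription factor scleraxis) and *Fmod* (fibromodulin, a collagen-binding proteoglycan) chose the cells, so their own levels are no result, and every gene that goes along with *Fmod* was favored to a degree by the choice.

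All mice carried *Gli1*-CreERT2, which places an inducible Cre under the *Gli1* promoter, together with the Ai9 reporter, and all received tamoxifen. The reporter then marks cells in which *Gli1* was active at induction and the descendants of those cells, not cells with *Gli1* RNA at harvest. Tendons were uninjured or were taken 7 or 21 days post injury (dpi) by tenotomy, a surgical cut of the Achilles tendon after which bone-like tissue, termed heterotopic ossification (HO), can form. Each time group had 8 of the 24 mice, and sorting gave a *Gli1*+ and a *Gli1*- fraction, each measured in 1 library. The ages of the mice were not given in the labels. With 1 library for each of the 6 conditions there was no spread between mice to test against, so no p-value is given. A level is a gene's UMIs summed over the chosen cells of a library per 1000000 UMIs of these cells (CPM) with an exact Poisson 95% interval, and a log2 ratio compares the levels of a pair of libraries with an exact conditional binomial interval, both for counting error only. Where 3 levels of a sort follow each other they stand for uninjured tendon, 7 dpi and 21 dpi in that order. The labels describe *Gli1*+ and *Gli1*- cells as sorted from the mice of each time group, so the sorts of a time point were not taken as independent, but which mice entered each library was not given.

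Tendon is a tissue of parallel type I collagen fibrils with a small population of cells between them. Scleraxis directs the embryonic tendon program, Mohawk (*Mkx*) and *Egr1* keep up collagen expression in mature tendon, and tenomodulin (*Tnmd*) is the membrane protein best known as a mark of mature tenocytes. Small leucine-rich proteoglycans such as fibromodulin, decorin and keratocan bind collagen and set the width of the fibrils. After a cut, cells at the site lay down a matrix rich in type III collagen, fibronectin, tenascin-C and periostin, and in HO cells of the region pass through a cartilage stage marked by *Sox9*, *Acan* and *Col2a1*.

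In time order, 249, 213 and 294 of the chosen cells were *Gli1*+ and 48, 51 and 107 were *Gli1*-. They held 265774 to 2414254 UMIs per library, with medians of 5137 to 7667 UMIs per cell. The 48 *Gli1*- cells of uninjured tendon were under the limit of 50 set for comparisons, so their levels are given but no ratio rests on them. The libraries did not keep the equal sex distribution in the labels. Among the chosen cells of *Gli1*+ uninjured tendon 120 had *Xist* UMIs alone and 80 had UMIs of Y-linked genes alone, while in both 7 dpi libraries and in *Gli1*- uninjured tendon the cells with either had Y-linked UMIs alone (115 *Gli1*+ and 31 *Gli1*- cells at 7 dpi, 25 in uninjured tendon). At 21 dpi 264 *Gli1*+ and 100 *Gli1*- cells had *Xist* alone, and 1 and 0 had Y-linked UMIs alone. The uninjured sorts thus differed in sex, with *Xist* alone in 120 *Gli1*+ and 0 *Gli1*- cells, so their cells do not appear to come from the same mix of mice. Time point and sex therefore cannot be told apart, except within *Gli1*+ uninjured tendon, where counts are also given for cells of matching sex. Of the chosen cells 0 to 7 per library had a high doublet score, and 0 to 9 shared a barcode with another library.

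In droplet data a barcode also takes up free RNA from the cell suspension. Keratins and other epidermal genes summed to 3409 CPM in the chosen *Gli1*+ cells at 7 dpi and to 22.6 to 309 CPM in the other 5 libraries. Endothelial cells of the same libraries, which express *Cdh5* and are not known to make keratins, held 4699 CPM of the epidermal genes in the *Gli1*+ library at 7 dpi and 17.0 to 481 CPM elsewhere. After each cell was thinned to 2000 UMIs, *Krt14* was found in 81.9% of the chosen and 80.5% of the endothelial cells of that library. Keratin counts in the chosen cells of that library were at or near this level and were not read as expression. How much of them was free RNA was not tested. The level in endothelial cells is given below beside some of the genes.

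The chosen cells made up 3.31%, 2.12% and 2.75% of the *Gli1*+ barcodes past the quality limits in time order (exact binomial 95% intervals, 2.92 to 3.74%, 1.84 to 2.42% and 2.45 to 3.08%). Among *Gli1*- barcodes they were 0.396% (0.292 to 0.525%), 0.468% (0.349 to 0.615%) and 0.889% (0.729 to 1.07%). *Gli1*+ libraries thus held the larger share at each time. The intervals of the sorts of a time point did not overlap, but they cover counting error only, with 1 library per condition. The order in time changed with thinning. When each barcode was thinned to 2000 UMIs before the rule was applied, the *Gli1*+ shares were 2.76%, 2.74% and 3.16%, with overlapping intervals, and the *Gli1*- shares were 0.552%, 1.06% and 1.5%. This left out 164, 428 and 352 *Gli1*+ and 1785, 757 and 980 *Gli1*- barcodes of lower depth. It also changed which cells met the rule, since a thinned barcode can lose its *Ly6a* or its *Scx* UMIs. *Gli1*- cells at 7 dpi went from 51 to 107 and *Gli1*+ cells of uninjured tendon from 249 to 203. The thinned shares are thus not shares of the same cells.

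The make-up of the *Scx* cells also differed between libraries. In uninjured tendon 486 *Gli1*+ barcodes without *Ptprc* or *Cdh5* UMIs and below the *Col2a1* limit held *Scx*, and 51.2% of them met the rule. At 7 dpi this was 9.02% of 2362 and at 21 dpi 12.1% of 2428 barcodes. Cells with both *Scx* and *Ly6a* (the stem cell antigen Sca-1, carried by sheath and adventitial progenitors) were 40.5, 81.8 and 79.3% of the *Scx* cells in the same order. Among *Gli1*- barcodes the chosen cells were 42.9% of 112, 2.78% of 1833 and 6.28% of 1705 *Scx* cells. Cells with both genes were also deeper, with medians of 8361 to 15989 UMIs, and deeper cells more often show at least 1 *Ly6a* UMI. *Ly6a* stood at 802 to 1340.4 CPM in endothelial cells, a cell type that expresses it, so it gives no measure of free RNA. How much depth adds to these shares was not tested beyond the thinning above.

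**Figure D1:**
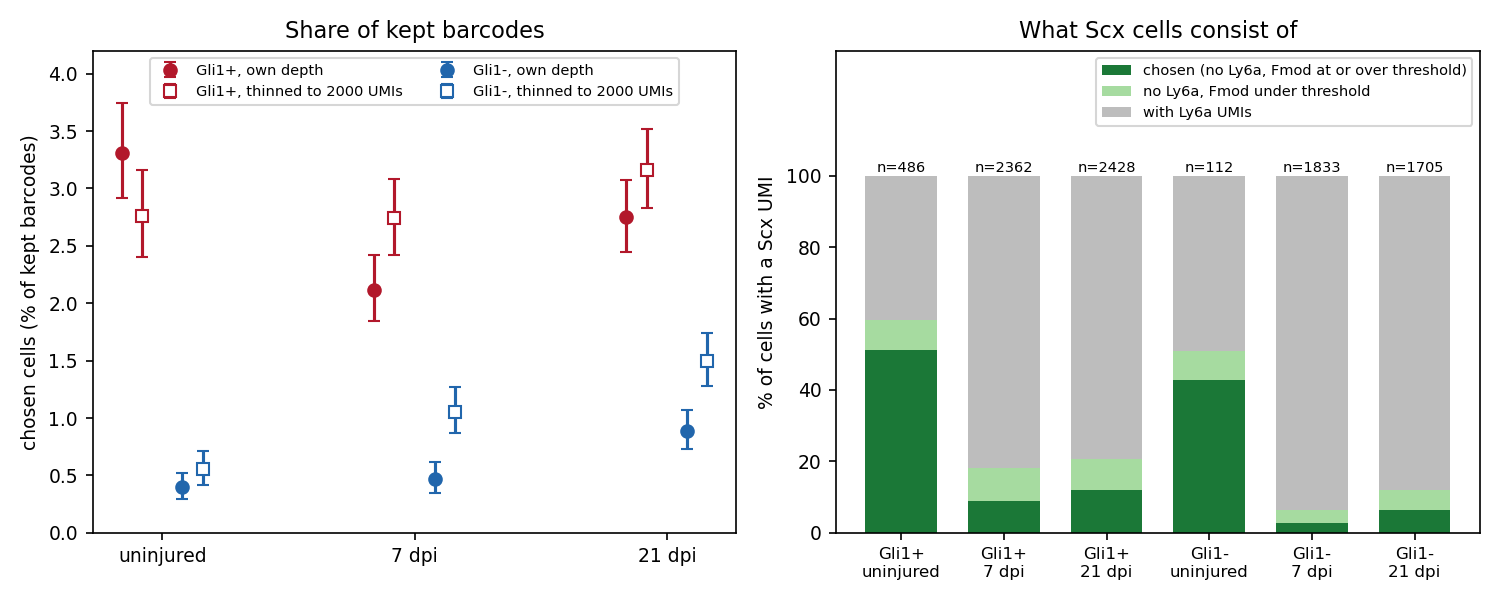
Left, percent of barcodes past the quality limits that met the rule in *Gli1*+ (red) and *Gli1*- (blue) libraries against time, at own depth (dots) and after thinning to 2000 UMIs (open squares), with exact binomial 95% intervals. Right, percent of *Scx* barcodes that were chosen, had *Fmod* below the threshold or had *Ly6a* UMIs; the chosen cells took 51.2% of *Scx* barcodes in *Gli1*+ uninjured tendon and 2.78 to 12.1% in the injured libraries.

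The label was checked with the 5 tenocyte markers the rule did not use, *Tnmd*, *Mkx*, *Col22a1* (a collagen of the muscle-tendon junction), *Kera* (keratocan) and *Chad* (chondroadherin, a collagen-binding proteoglycan). All 5 were found in every library. Their summed level was 4174, 1881 and 1947 CPM in *Gli1*+ chosen cells of uninjured tendon, 7 dpi and 21 dpi, and 2453, 2106 and 1762 CPM in *Gli1*- cells. Endothelial cells held 26.7 to 96.3 CPM. Endothelial markers outside the rule summed to 5.38 to 105 CPM in the chosen cells and immune markers to 6.21 to 43.8 CPM. The 6 adventitial fibroblast markers other than *Ly6a* summed to 187 to 379 CPM, against 580.3 to 1484 CPM over all kept barcodes. The pericyte and smooth muscle list summed to 87.0 to 466 CPM in the chosen cells and to 599 to 2037 CPM in endothelial cells, and the Schwann list to 6.26 to 30.1 CPM. The 7 chondrocyte markers outside the rule summed to 158 to 409 CPM in the chosen cells. In the *Gli1*+ libraries they were 287, 212 and 409 CPM, against 71.2, 217 and 572 CPM over all kept barcodes and 21.7, 91.8 and 62.8 CPM in endothelial cells. At 21 dpi the *Gli1*- chosen cells held 402 CPM, all kept barcodes 741 CPM and endothelial cells 269 CPM. The 6 bone markers summed to 1193 CPM in *Gli1*+ cells at 21 dpi and 178 CPM in *Gli1*+ uninjured tendon, mostly *Ibsp* of 1 cell in each, and to at most 12.6 CPM elsewhere. Erythroid genes reached 158 CPM at most, and skeletal muscle genes 206 CPM in *Gli1*+ uninjured tendon and at most 56.4 CPM elsewhere.

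The *Fmod* threshold cut a continuous range. The 131 cells just inside it, with *Fmod* at 0.1 to 0.15% of UMIs, held *Tnmd* at 686 CPM, *Thbs4* at 3567 CPM and *Chad* at 129 CPM. The 188 cells just outside, at 0.05 to 0.1%, held 523, 2725 and 57.7 CPM. These values pool all libraries, and in each injured library the 3 genes were higher inside. In *Gli1*+ uninjured tendon *Tnmd* went the other way, at 716 CPM in 9 cells inside and 1503 CPM in 10 outside, while *Thbs4* and *Chad* were higher inside. In *Gli1*- uninjured tendon, with 2 and 3 cells, *Tnmd* and *Thbs4* were lower inside. The median share of *Fmod* among all chosen cells was 0.750, 0.307 and 0.268% for *Gli1*+ and 0.531, 0.263 and 0.211% for *Gli1*- libraries in time order.

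*Tnmd* differed little with time. It stood at 1224, 999.6 and 1107 CPM for the *Gli1*+ sort and 771, 1032 and 1155 CPM for the *Gli1*- sort. The log2 ratio to uninjured tendon in *Gli1*+ cells, with its 95% interval, was -0.29 (-0.39 to -0.19) at 7 dpi and -0.14 (-0.22 to -0.07) at 21 dpi. All 6 levels lay within 2-fold of each other, and endothelial cells held 6.25 to 53.8 CPM. *Thbs4* (thrombospondin 4, a matrix protein of tendon) was also within 2-fold over the 6 libraries, at 6715, 5471 and 4748 CPM for the *Gli1*+ sort and 6340.0, 7077 and 4342 CPM for the *Gli1*- sort.

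Other tendon genes were lower after injury. *Chad* was at 1759 CPM in *Gli1*+ uninjured cells, 251 CPM at 7 dpi and 498 CPM at 21 dpi, with log2 ratios to uninjured tendon of -2.81 (-2.98 to -2.64) and -1.82 (-1.92 to -1.73). The *Gli1*- levels were 956, 241 and 297 CPM, with overlapping intervals at 7 and 21 dpi, and endothelial cells held at most 39.3 CPM. *Mkx* was 357 CPM in uninjured *Gli1*+ cells and 134 and 77.0 CPM at 7 and 21 dpi, with log2 ratios of -1.41 (-1.67 to -1.16) and -2.21 (-2.45 to -1.98), and stood at 196, 163 and 71.0 CPM in *Gli1*- cells. It was lowest at 21 dpi in both sorts. *Col22a1* was at 456, 153 and 98.2 CPM in *Gli1*+ cells. After thinning it was found in 22.2% (17.2 to 27.9%), 19.1% (14.0 to 25.2%) and 11.4% (7.96 to 15.6%) of these cells. The share of cells with *Col22a1* at 7 dpi thus overlapped the uninjured share, while the summed level was lower. In *Gli1*- cells its level was 372, 407 and 75.6 CPM. At 7 dpi the log2 ratio of *Gli1*+ to *Gli1*- was -1.41 (-1.74 to -1.07). In *Gli1*+ cells *Kera* was near its uninjured level at 7 dpi and lower at 21 dpi, at 379, 343 and 167 CPM in *Gli1*+ cells, with a log2 ratio at 21 dpi of -1.18 (-1.36 to -1.01). In *Gli1*- cells it was 158, 263 and 164 CPM.

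*Comp* (cartilage oligomeric matrix protein, which bridges collagen molecules) was lower at 7 than at 21 dpi in both sorts. It was 1513, 741 and 1388 CPM for the *Gli1*+ sort and 1505, 660.2 and 1208 CPM for the *Gli1*- sort, with a log2 ratio of -1.03 (-1.14 to -0.92) at 7 dpi and -0.13 (-0.20 to -0.05) at 21 dpi. Lubricin and some secreted regulators were lower after injury. *Prg4* (lubricin, the lubricant of gliding tendon surfaces) was 2209.7, 436 and 450.2 CPM in *Gli1*+ cells and 1084, 422 and 424 CPM in *Gli1*- cells. *Prg4* in endothelial cells was 49.7 to 263 CPM. *Wif1* (a secreted Wnt inhibitor) was 358, 74.1 and 42.2 CPM in *Gli1*+ cells, and the log2 ratio at 21 dpi of -3.08 (-3.40 to -2.78) was among the 12 lowest of the genes ranked. *Angptl7* (an angiopoietin-like secreted protein) was 2069, 519 and 805 CPM, and *Cilp* (cartilage intermediate layer protein, a binder of TGF beta) 1366, 809 and 578 CPM in *Gli1*+ cells, with *Cilp* less than 2-fold lower at 7 dpi. *Abi3bp*, a matrix protein, was higher at 7 dpi but by less than 2-fold, with 2464, 4343 and 2577 CPM.

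**Figure D2:**
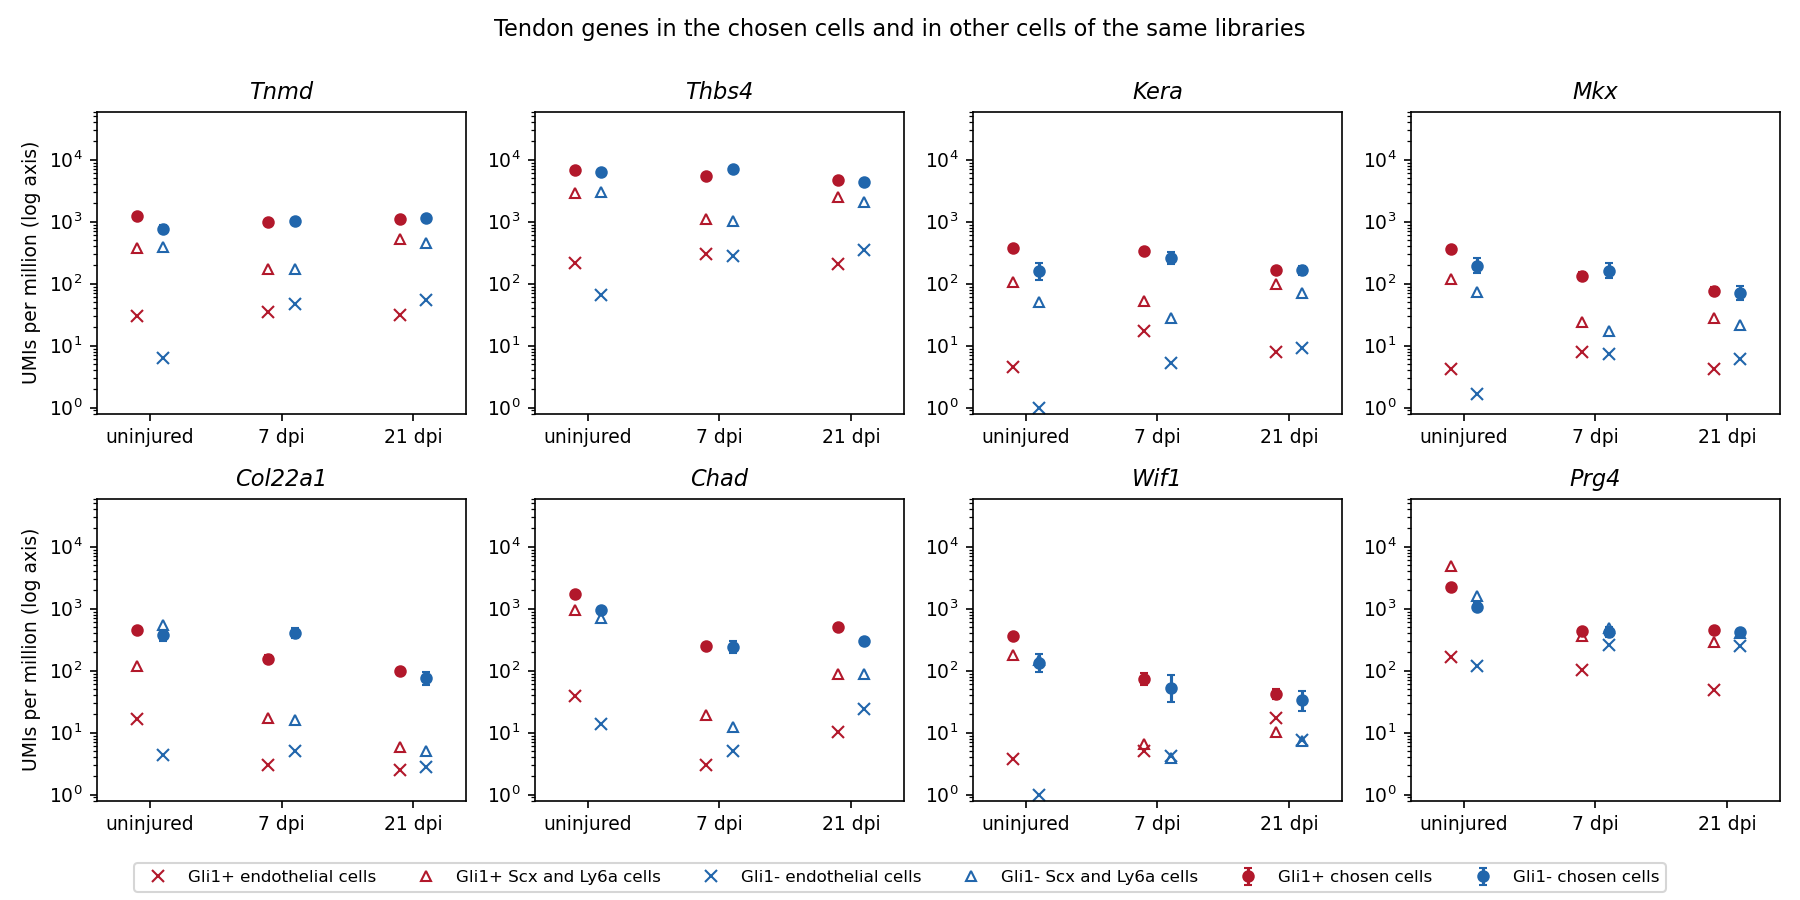
Level in CPM (UMIs per 1000000, log axis) of 8 tendon genes in the chosen cells of each library (dots with exact Poisson 95% intervals), in endothelial cells of the same library (crosses) and in cells with both *Scx* and *Ly6a* (open triangles); points under 1 CPM are drawn at 1. *Tnmd* lay within 2-fold over the 6 libraries, while *Chad*, *Mkx*, *Wif1* and *Prg4* in *Gli1*+ cells lay lower at 7 and 21 dpi than in uninjured tendon.

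Counts of genes give the wider picture. A gene was counted when it had at least 20 UMIs over the pair of libraries and 50 CPM in either, and was called higher or lower at a 2-fold difference. In *Gli1*+ cells 464 of 4036 counted genes (11.5%) were higher and 662 (16.4%) lower at 7 dpi than in uninjured tendon. At 21 dpi 351 of 3936 (8.92%) were higher and 606 (15.4%) lower. Against these shares, 0 of the 21 counted mature tendon genes were higher and 9 were lower at 7 dpi, with a median log2 ratio of -0.76, where the median over all counted genes was -0.15. At 21 dpi 1 (*Thbs3*) was higher and 9 were lower, with a median of -0.50 against -0.20 for all genes. Of counted genes at 2 times or more the endothelial level in the higher library, 218 of 662 (32.9%) were lower at 7 dpi and 226 of 820 (27.6%) at 21 dpi, against 8 of 18 and 8 of 20 mature tendon genes. *Col22a1*, *Chad*, *Prg4*, *Wif1*, *Angptl7*, *Myoc* and *Cd200* were among the lower genes at both times. The gene lists, here and below, were chosen with earlier results of these data known, so their shares are a description and no test. The median *Fmod* share of *Gli1*+ chosen cells was also lower after injury, at 0.750, 0.307 and 0.268%. How much of the lower tendon gene levels goes with *Fmod* was not tested. Scaling by trimmed means (TMM) in place of total UMIs moved all ratios by 0.13 at 7 dpi over uninjured, 0.26 at 21 dpi over uninjured and 0.13 at 21 over 7 dpi on the log2 scale. Cells of matching sex gave 1114 called genes at 7 dpi (cells with Y-linked UMIs and no *Xist*) and 1010 at 21 dpi (cells with *Xist* and no Y-linked UMIs), against 1126 and 957 for all chosen cells.

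The genes with the lowest ratios at 7 dpi included membrane, signaling and matrix genes. *Myoc* (myocilin, a secreted glycoprotein) was 406 CPM in *Gli1*+ uninjured cells and 8.33 CPM at 7 dpi, with 65.9 CPM at 21 dpi. *Abca8a* (a lipid transporter of the ABC family) was 162, 3.33 and 9.11 CPM for the *Gli1*+ sort and 199, 21.9 and 6.87 CPM for the *Gli1*- sort. Endothelial cells of uninjured *Gli1*- tendon held 310.0 CPM of it, above the chosen cells there. *Tnxb* (tenascin-X, a matrix protein that stabilizes collagen) was 239, 25.8 and 14.1 CPM in *Gli1*+ cells, and *Bmp6* 143, 12.5 and 17.8 CPM. *Tnxb* and *Bmp6* were also found in endothelial cells of uninjured tendon at 84.0 and 351 CPM in the *Gli1*+ library. *Arhgap20* (a GTPase-activating protein), *Cacnb4* (a calcium channel subunit) and *Spock2* (a matrix proteoglycan) had log2 ratios of -4.72, -4.54 and -3.62, and *Cyria*, *Abca8b* and *Lama3* were the others. Of the genes ranked lowest at 7 dpi, *Ibsp* and *Acta1* rested on few cells. Of 359 *Ibsp* UMIs in *Gli1*+ uninjured cells 357 were in 1 cell, and of 264 *Acta1* UMIs 215 were in 1 cell. At 21 dpi the lowest included *Arhgap20*, *Abca8a*, *Abca8b*, *Tnxb*, *Cacnb4*, *Acta1* and *Wif1* as well as *Dpp4* (186 and 15.3 CPM), *Pcolce2* (an enhancer of procollagen cleavage, 302 and 32.3 CPM), *Ptprt*, *Tle4* and *Dchs2*.

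More of the tendon transcription factors were lower than higher after injury. At 7 dpi 5 of 9 counted factors were lower and 1 higher, with a median log2 ratio of -1.14, and at 21 dpi 4 of 8 were lower and 0 higher, with a median of -0.99. Over all counted genes 16.4 and 15.4% were lower. Of factors at 2 times or more the endothelial level in the higher library, 2 of 6 at 7 dpi and 2 of 5 at 21 dpi were lower. For all genes at that level 32.9 and 27.6% were lower, so the 7 dpi count was near that share and the 21 dpi count rests on 5 genes. *Mkx*, *Egr1*, *Eya2* and *Tcf7l2* were the 4 lower at both times. *Egr1* was 4424, 1802 and 1898 CPM for the *Gli1*+ sort and 3239.6, 1868 and 1969 CPM for the *Gli1*- sort. *Egr1* is also an early response gene and stood at 2388, 1310.1 and 1270.0 CPM in endothelial cells of the *Gli1*+ libraries. *Eya2* (a transcriptional coactivator) was 384, 74.1 and 95.3 CPM, with 3.79 to 23.1 CPM in endothelial cells. *Eya1*, of the same family, was the factor that was higher at 7 dpi, at 77.5 CPM for *Gli1*+ and 100.1 CPM for *Gli1*- cells against 27.2 and 56.4 CPM in uninjured tendon and 19.9 and 9.16 CPM at 21 dpi. Its log2 ratio of 21 to 7 dpi was -1.95 (-2.5 to -1.44) among *Gli1*+ and -3.38 (-4.78 to -2.30) among *Gli1*- cells. *Klf4* was over 2-fold lower at 7 dpi and less so at 21 dpi, with 1409, 393 and 888 CPM in *Gli1*+ cells, and endothelial cells held 1344, 607 and 793 CPM.

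Among the small leucine-rich proteoglycans, which include *Kera* and *Chad*, some were lower and others higher after injury. At 7 dpi 6 of 10 counted members were lower and 2 higher, and at 21 dpi 5 were lower and 3 higher, with medians of -1.55 and -1.0. Over all counted genes 16.4 and 15.4% were lower and 11.5 and 8.92% higher. Of members at 2 times or more the endothelial level 6 of 8 were lower at 7 dpi and 5 of 10 at 21 dpi, against 32.9 and 27.6% of all genes at that level. At that level 0 of 8 and 3 of 10 were higher, against 10.6 and 19.3%. *Dcn* (decorin) was 16536, 6125 and 8117 CPM for the *Gli1*+ sort and 12285, 4965 and 7464 CPM for the *Gli1*- sort. *Ogn* (osteoglycin) was 2251, 704 and 735 CPM and *Prelp* 1344, 252 and 439.9 CPM in *Gli1*+ cells. *Lum* (lumican) was higher after injury, with 108, 735 and 1605 CPM for the *Gli1*+ sort and 158, 879 and 1858 CPM for the *Gli1*- sort, a log2 ratio at 21 dpi of 3.89 (3.70 to 4.10). *Bgn* (biglycan) was 1053, 2163 and 3115 CPM and *Aspn* (asporin) 729.9, 1055 and 2109 CPM in *Gli1*+ cells. Endothelial cells of the *Gli1*+ libraries held 440.0 and 305 CPM of *Lum* and 1210.3 and 724 CPM of *Bgn* at 7 and 21 dpi, so neither gene reached 2 times that level in the chosen cells at 7 dpi and both did at 21 dpi.

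By summed UMIs *Col3a1* was over 2-fold higher in the chosen *Gli1*+ cells at both times after injury. *Col1a1* was so at 21 dpi but not at 7 dpi. The *Col1a1* call at 7 dpi depended on the measure. Its median over *Gli1*+ cells was 2799.8, 12177 and 16684 CPM in time order, also past 2-fold at 7 dpi. Uninjured *Gli1*+ cells had an upper quartile of 6966 CPM, under their summed level of 9197 CPM. *Col1a1*, of the main tendon collagen, was 9197, 14736 and 23136 CPM for the *Gli1*+ sort and 3409, 15609 and 17393 CPM for the *Gli1*- sort, with log2 ratios in *Gli1*+ cells of 0.68 (0.65 to 0.71) at 7 dpi and 1.33 (1.31 to 1.35) at 21 dpi. *Col3a1*, the collagen of early scar, was 306, 5401 and 7599 CPM for the *Gli1*+ sort and 1046, 5810.0 and 7651 CPM for the *Gli1*- sort. In time order its *Gli1*+ log2 ratios to uninjured tendon were 4.14 (4.02 to 4.26) and 4.63 (4.52 to 4.75), the highest among the collagens counted. Of the 9 fibrillar collagens counted at 7 dpi 5 were higher and 1 (*Col11a2*) lower, and at 21 dpi 5 of 8 were higher and 1 lower, with medians of 1.71 and 1.36. Over all counted genes 11.5 and 8.92% were higher and 16.4 and 15.4% lower.

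Both collagens were also found in endothelial cells. In endothelial cells of the *Gli1*+ libraries *Col3a1* was 115, 4847 and 2418 CPM and *Col1a1* 274, 6269 and 3202 CPM, and in the *Gli1*- libraries *Col3a1* was 669, 8277 and 3561 CPM. At 7 dpi the chosen cells thus held *Col3a1* at a level near or below that of endothelial cells, and at 21 dpi at more than 2 times that level in both sorts. Of the fibrillar collagens at 2 times or more the endothelial level, 0 of 4 were higher at 7 dpi and 4 of 7 at 21 dpi (*Col1a1*, *Col3a1*, *Col5a1* and *Col5a2*). For all genes at that level, 70 of 662 (10.6%) were higher at 7 dpi and 158 of 820 (19.3%) at 21 dpi. How much of the level in the chosen cells was free RNA was not tested.

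**Figure D3:**
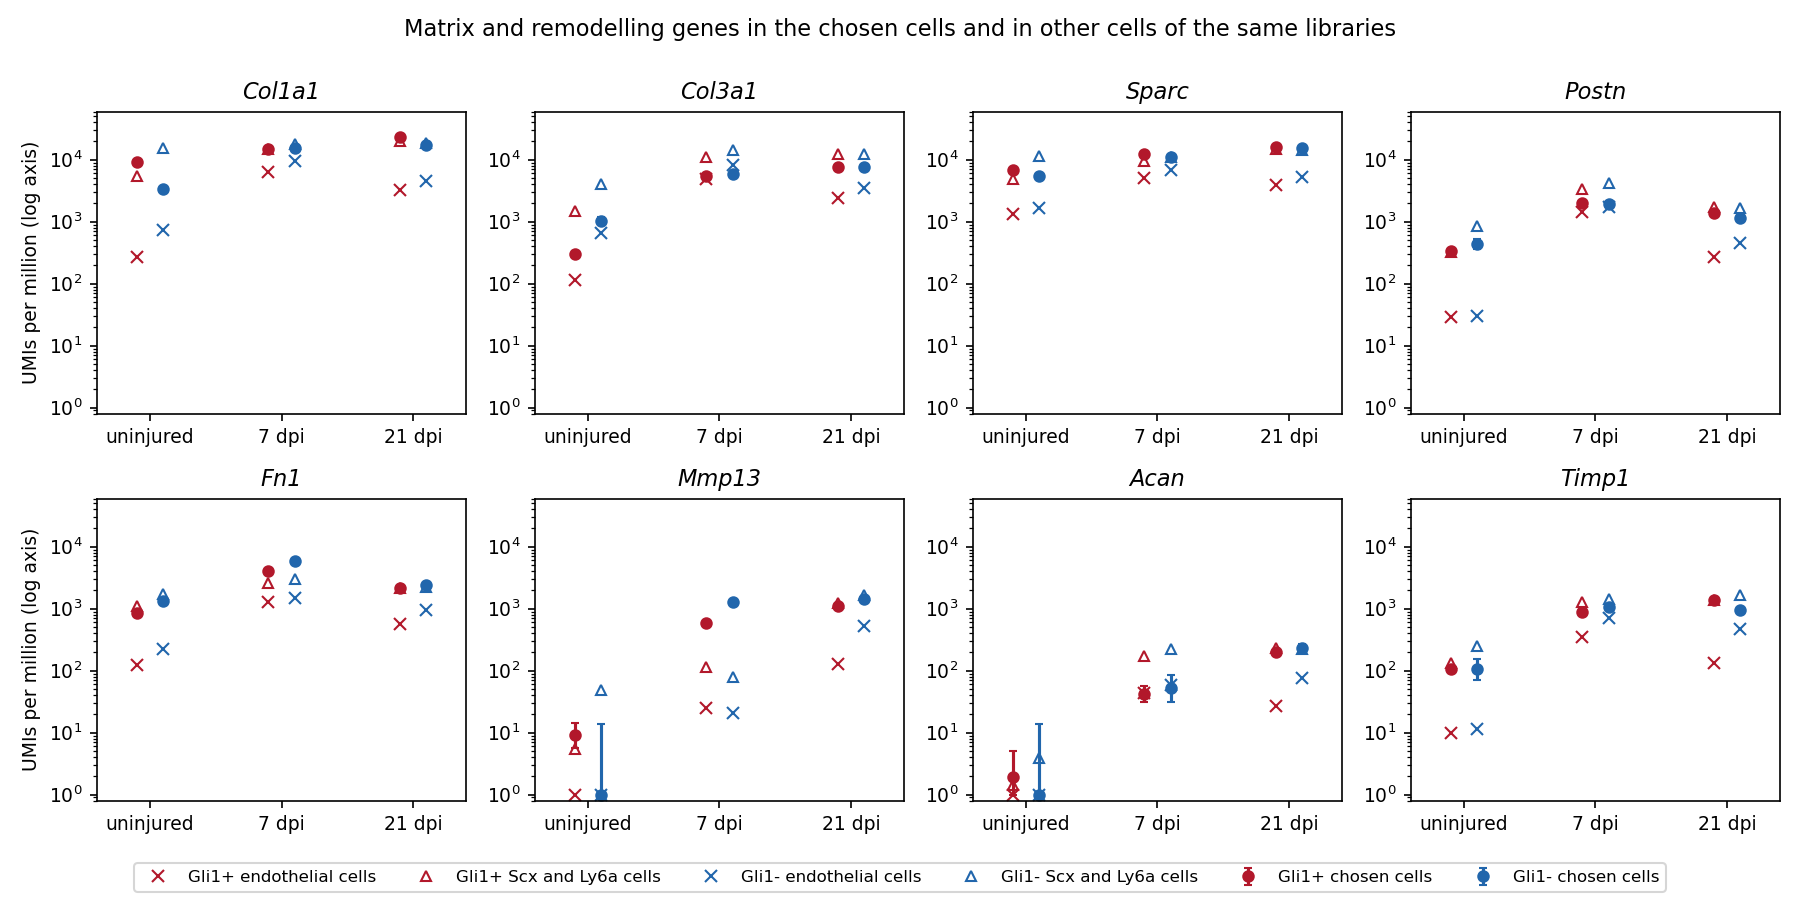
Level in CPM (UMIs per 1000000, log axis) of 8 matrix genes in the chosen cells (dots with exact Poisson 95% intervals), in endothelial cells (crosses) and in cells with both *Scx* and *Ly6a* (open triangles) of each library; points under 1 CPM are drawn at 1. *Col3a1* in the chosen cells lay near the endothelial level at 7 dpi, while *Mmp13*, *Fn1* and *Sparc* lay over it at 7 and 21 dpi.

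Fibronectin (*Fn1*) was highest at 7 dpi, at 856, 4031 and 2192 CPM for the *Gli1*+ sort and 1336, 5829 and 2409 CPM for the *Gli1*- sort. Endothelial cells held 1303 CPM for *Gli1*+ and 1466 CPM for *Gli1*- in the respective library at 7 dpi, and the log2 ratio of 21 to 7 dpi was -0.88 (-0.94 to -0.82) among *Gli1*+ and -1.27 (-1.37 to -1.18) among *Gli1*- cells. *Postn* (periostin) and *Tnc* (tenascin-C) were also highest at 7 dpi in *Gli1*+ cells, with 340.4, 2008 and 1370.2 CPM of *Postn* and 372, 948 and 719.9 CPM of *Tnc* in *Gli1*+ cells. At 7 dpi endothelial cells of that sort held 1431 and 738 CPM of these genes. *Cthrc1* (a secreted protein of matrix-making fibroblasts) was 55.9, 1193 and 1081 CPM, against 360.2 and 144 CPM in endothelial cells at 7 and 21 dpi. *Sparc* (osteonectin, a collagen-binding glycoprotein) was 6952, 12394 and 16266 CPM. *Spp1* (osteopontin) was 190.1, 703 and 1901 CPM for the *Gli1*+ sort and 128, 1345 and 931 CPM for the *Gli1*- sort, so its order between 7 and 21 dpi differed between the sorts. In *Gli1*+ cells at 21 dpi 55.4% of the *Spp1* UMIs were in 5 cells.

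Over the wound matrix list 8 of 23 counted genes were higher and 3 lower at 7 dpi, and 11 of 24 were higher and 1 lower at 21 dpi. The medians were 0.74 and 0.87, and over all counted genes 11.5 and 8.92% were higher. Of the list's genes at 2 times or more the endothelial level, 4 of 15 were higher at 7 dpi (*Spp1*, *Fn1*, *Cthrc1* and *Mfap2*) and 10 of 20 at 21 dpi, where 10.6 and 19.3% of all genes at that level were higher. *Mfap5* (a microfibril protein) was 137, 324 and 712 CPM and *Tnn* (tenascin-N) 11.7, 88.3 and 181 CPM in *Gli1*+ cells. At 7 dpi endothelial cells held more of both, at 472 CPM of *Mfap5* and 166 CPM of *Tnn*. The crosslinking enzyme *Lox* stayed within 2-fold at 536, 529.8 and 492 CPM. Among the other collagens 4 of 11 were higher and 2 lower at 7 dpi and 5 of 12 higher and 1 lower at 21 dpi. At 2 times or more the endothelial level 2 of 7 were higher at 7 dpi (*Col6a1* and *Col6a2*) and 4 of 9 at 21 dpi. *Col6a1*, of the pericellular type VI collagen, was 457, 1176 and 1081 CPM, *Col14a1* 21.9, 153 and 174 CPM (in endothelial cells 20.1, 103 and 79.2 CPM), and *Col12a1* stayed within 2-fold at 1051, 911 and 939 CPM. Genes for collagen folding and secretion were higher in 7 of 25 cases at 7 dpi and 8 of 25 at 21 dpi, and lower in 3 and 1. Of these genes at 2 times or more the endothelial level 0 of 6 were higher at 7 dpi and 6 of 11 at 21 dpi. *Serpinh1* (the collagen chaperone Hsp47) was 568, 1527 and 1299 CPM, with 825 and 509.7 CPM in endothelial cells at 7 and 21 dpi. The prolyl hydroxylase subunits split, with *P4ha1* at 367, 175 and 139 CPM and *P4ha2* at 7.78, 26.7 and 70.0 CPM.

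Among the proteases *Mmp13* (collagenase 3, which cleaves fibrillar collagen) was nearly absent from uninjured cells. *Gli1*+ cells of uninjured tendon held 19 *Mmp13* UMIs, all in 1 cell (9.24 CPM), and *Gli1*- cells held none. At 7 dpi the level was 591 CPM for *Gli1*+ and 1277 CPM for *Gli1*- cells and at 21 dpi 1101 and 1443 CPM. Endothelial cells held 24.9, 21.1, 128 and 529.7 CPM in the same order. *Mmp13* was spread unevenly, with 51 of 213 *Gli1*+ cells at 7 dpi and 105 of 294 at 21 dpi holding a UMI and the 5 highest cells holding 49.6 and 53.2% of the UMIs. *Mmp3* (stromelysin 1) was high at 21 dpi, at 32.6, 55.8 and 802 CPM for the *Gli1*+ sort and 0, 84.5 and 978 CPM for the *Gli1*- sort, with 115 and 672 CPM in endothelial cells at 21 dpi. *Mmp2* (gelatinase A) was 561, 1241 and 1453 CPM and *Mmp14*, its activator, 121, 349 and 449 CPM in *Gli1*+ cells, where endothelial cells held 197 CPM of *Mmp14* at 7 dpi and 187 CPM at 21 dpi. Of the tissue inhibitors *Timp1* was higher and *Timp3* lower, with *Timp1* at 106, 888 and 1371 CPM and *Timp3* at 1137, 392 and 326 CPM. *Timp3* was also lower after injury in endothelial cells, at 1509, 774 and 804 CPM. Over the list of 12 counted genes 5 were higher and 3 lower at 7 dpi and 5 higher and 1 lower at 21 dpi, where 11.5 and 8.92% of all counted genes were higher and 16.4 and 15.4% lower. At 2 times or more the endothelial level 3 of 5 were higher and 1 lower at 7 dpi and 5 of 9 higher and 0 lower at 21 dpi. For all genes at that level 10.6 and 19.3% were higher and 32.9 and 27.6% lower.

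A few cartilage genes were higher in the chosen cells at 21 dpi. *Acan* (aggrecan) had 4 UMIs in *Gli1*+ uninjured cells (1.95 CPM) and none in *Gli1*- uninjured cells. It was 42.5 CPM for *Gli1*+ and 53.2 CPM for *Gli1*- cells at 7 dpi, no higher than the 42.9 and 58.6 CPM of endothelial cells, and 197 and 234 CPM at 21 dpi, against 26.5 and 76.2 CPM. After thinning, *Acan* was found in 16.9% (12.8 to 21.7%) of chosen and 2.29% (0.845 to 4.92%) of endothelial cells in the *Gli1*+ library at 21 dpi, and in 21.9% and 5.27% in the *Gli1*- library. Cells with both *Scx* and *Ly6a* showed *Acan* more often at 21 dpi, in 26.7% (*Gli1*+) and 24.0% (*Gli1*-). *Sox9* was found in 10.7% of chosen and 14.5% of these cells in the *Gli1*+ library, and in 12.4% and 11.9% in the *Gli1*- library. The higher levels were thus not particular to the chosen cells. In *Gli1*+ uninjured tendon 0 of 248 thinned cells had an *Acan* UMI, where 3 counts would be 1.21%, and 1.20% had one at full depth. *Sox9*, the transcription factor that drives cartilage formation, was 19.5, 26.7 and 78.3 CPM for the *Gli1*+ sort and 22.6, 25 and 73.3 CPM for the *Gli1*- sort. *Matn4* (matrilin 4) was 96.3, 157 and 559 CPM and *Tnfaip6* (a hyaluronan-binding protein) 212, 939.6 and 613 CPM in *Gli1*+ cells. Endothelial cells held 177, 583 and 246 CPM of *Tnfaip6*, and at 7 dpi it was found in 58.8% of chosen and 36.6% of endothelial *Gli1*+ cells after thinning. The chondrogenic list held 1 higher and 3 lower of 7 counted genes at 7 dpi and 4 higher and 3 lower of 9 at 21 dpi, with the 4 being *Sox9*, *Acan*, *Matn4* and *Tnfaip6*. Over all counted genes 11.5 and 8.92% were higher and 16.4 and 15.4% lower. The 1 higher at 7 dpi was *Tnfaip6*, at under 2 times the endothelial level, and the 4 at 21 dpi were at 2 times that level or more. Of the list's genes at that level 0 of 5 and 4 of 8 were higher and 3 were lower at each time. For all genes at that level 10.6 and 19.3% were higher and 32.9 and 27.6% lower. Cells with 5 or more *Col2a1* UMIs had been left out by the rule, so these levels do not cover them.

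Of the bone genes *Ibsp* (bone sialoprotein) was 1168 CPM in *Gli1*+ cells at 21 dpi, but 2706 of its 2821 UMIs were in 1 cell. In all, 23 cells held a UMI. *Runx2*, the transcription factor of bone formation, was 80.2, 78.3 and 65.0 CPM in *Gli1*+ cells. *Sp7* (osterix) was at 0 in both uninjured and both 7 dpi libraries and at 2.90 and 1.15 CPM at 21 dpi. Of 12 osteogenic genes 4 were counted in each comparison with uninjured tendon, with 1 higher (*Spp1*) and 2 lower (*Ibsp* and *Col13a1*) at 7 dpi and 2 higher (*Ibsp* and *Spp1*) and 1 lower (*Col13a1*) at 21 dpi. Each call of *Ibsp* rested on 1 cell, that of uninjured tendon or that of 21 dpi, and 55.4% of the *Spp1* UMIs at 21 dpi were in 5 cells, so nothing is read from this count against the 11.5 and 8.92% higher and 16.4 and 15.4% lower over all counted genes.

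Several of the highest ratios at 21 dpi were of acute phase and protease inhibitor genes whose UMIs lay in few cells. *Saa3* (serum amyloid A3) was 1.95, 48.3 and 1682 CPM for the *Gli1*+ sort and 0, 50.1 and 2021 CPM for the *Gli1*- sort. At 21 dpi 5 cells held 91.4% of the *Saa3* UMIs in the *Gli1*+ and 91.2% in the *Gli1*- library, and endothelial cells held 318 and 2592 CPM, the latter above the chosen cells. *Slpi* (a secreted leukocyte protease inhibitor) was 31.1, 113 and 2373 CPM in *Gli1*+ cells, with 54.7% of the UMIs in 5 cells at 21 dpi, and *Hp* (haptoglobin) 1.46, 22.5 and 529 CPM, with 69.7% in 5 cells. *Cxcl5* had no UMI in *Gli1*+ uninjured cells and 144 CPM at 21 dpi, at least 98.8-fold above the 3 counts that a 0 allows there, with 88.5% of the UMIs in 5 cells. In *Gli1*- cells at 21 dpi 492 of 545 *Cxcl5* UMIs were in 1 cell. At 7 dpi endothelial *Gli1*+ cells held 62.9 CPM of *Saa3*, 240.5 CPM of *Slpi* and 66.9 CPM of *Hp*, above the chosen cells. Genes spread over more cells followed. *Crabp2* (a retinoic acid carrier) was 2.43, 35.8 and 217 CPM in *Gli1*+ cells, with UMIs in 112 of 294 cells at 21 dpi, and *Rbp4* (retinol binding protein) was 4.38, 25 and 241 CPM. Both were above the 18.1 and 11.4 CPM of endothelial cells at 21 dpi and below the 48.9 and 48.9 CPM of these cells at 7 dpi. *Brinp3* and the chemokine *Ccl7* complete the genes ranked highest with *Saa3*, *Cxcl5*, *Hp*, *Mmp13*, *Acan*, *Slpi*, *Col3a1* and *Mmp3*.

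Over the list of stromal inflammation genes 8 of 10 were higher and 0 lower at 7 dpi and 12 of 14 higher and 0 lower at 21 dpi, with medians of 1.81 and 2.56. Over all counted genes 11.5 and 8.92% were higher. None of the 8 and 5 of the 12 (*Saa3*, *Cxcl5*, *Ptgs2*, *Ptx3* and *Has1*) were at 2 times or more the endothelial level. Of the list's genes at that level 0 of 2 and 5 of 6 were higher, against 10.6 and 19.3% of all genes there. *Ccl2* (a monocyte chemokine), for example, was 19.5, 361 and 120.1 CPM in *Gli1*+ chosen cells and 7.52, 300.3 and 118 CPM in endothelial cells. The 12 genes ranked highest at 7 dpi were *Cstdc5*, *Krt16*, *Stfa3*, *Krt1*, *Fabp5*, *Dsp*, *Lgals7*, *Krt2*, *Dmkn*, *Krt14*, *Krt5* and *Sfn*, a set of mostly epidermal genes. *Krt14* was 935 CPM in the chosen *Gli1*+ cells at 7 dpi and 1769 CPM in endothelial cells of that library. In the *Gli1*- library at 7 dpi it was 6.26 CPM, and none of the 12 genes reached 2 times the endothelial level at 7 dpi. *Fabp5*, a fatty acid binding protein, was also found outside that library, at 7.78, 1429 and 165 CPM for the *Gli1*+ sort and 18.8, 163 and 121 CPM for the *Gli1*- sort, with 338, 1646 and 377 CPM in endothelial *Gli1*+ cells. Contractile genes were higher in 4 of 9 cases at 7 dpi and 3 of 9 at 21 dpi, none of them at 2 times the endothelial level, with *Acta2* (smooth muscle actin) at 79.3, 408 and 275 CPM in chosen and 110.3, 421 and 261 CPM in endothelial *Gli1*+ cells.

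Growth factor signals differed gene by gene. Of the TGF beta, BMP and GDF genes 3 of 24 were higher and 8 lower at 7 dpi, and 2 of 25 were higher and 7 lower at 21 dpi. Over all counted genes 11.5 and 8.92% were higher and 16.4 and 15.4% lower, so the higher counts are near their share and the lower counts above theirs. At 2 times or more the endothelial level 2 of 12 were higher and 5 lower at 7 dpi, and 1 of 12 higher and 4 lower at 21 dpi. For all genes at that level 10.6 and 19.3% were higher and 32.9 and 27.6% lower. The ligands *Bmp4* and *Bmp6* were lower at both times, with *Bmp4* at 61.8, 19.2 and 14.5 CPM in *Gli1*+ cells. *Tgfb2* was higher at 7 dpi, at 145, 362 and 196 CPM, and *Inhba*, the activin A subunit, lower at 7 dpi, at 91.4, 36.7 and 111 CPM. The co-receptor *Tgfbr3* was 921, 422 and 303 CPM and the receptor *Bmpr1b* 167, 55.0 and 60.1 CPM. Among Wnt and hedgehog modulators 1 of 7 was higher and 2 lower at 7 dpi and 4 of 8 higher and 2 lower at 21 dpi, and at 2 times or more the endothelial level 0 of 5 and 3 of 6 were higher. Against the low *Wif1*, the secreted Wnt modulators *Sfrp2* and *Dkk3* were 161, 102 and 468 CPM and 55.0, 101 and 209 CPM in *Gli1*+ cells. *Gli1* itself was 1.15 to 5.35 CPM in all 6 libraries, and *Gli2* was 78.8, 25 and 33.6 CPM in *Gli1*+ cells. In the IGF system 3 of 9 genes were higher at each time, with 1 lower at 7 dpi and 0 at 21 dpi, and at 2 times or more the endothelial level 1 of 3 (*Igf1*) and 2 of 4 were higher. *Igf1* was 240.2, 783 and 669.8 CPM and *Igfbp4* 237, 839 and 1092 CPM (in endothelial cells 123, 652 and 508 CPM), against *Igfbp6* at 1876, 915 and 1107 CPM.

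The study concerns *Gnas*, which encodes the stimulatory G protein subunit that activates adenylyl cyclase, and the protein kinase A pathway below it. *Gnas* was 1543 CPM in *Gli1*+ uninjured cells (95% interval, 1489 to 1597), 1061 CPM at 7 dpi (95% interval, 1004 to 1121) and 1558 CPM at 21 dpi (95% interval, 1509 to 1609). In *Gli1*- cells it was 993, 932 and 1549.8 CPM. All levels lay within 2-fold, and endothelial cells held 923 to 1539 CPM. The log2 ratio of 21 to 7 dpi was 0.55 (0.46 to 0.65) among *Gli1*+ and 0.73 (0.55 to 0.92) among *Gli1*- cells. *Prkaca*, the catalytic subunit of protein kinase A, was 27.2, 22.5 and 23.2 CPM in *Gli1*+ cells, and the parathyroid hormone receptor *Pth1r* 28.7, 40.0 and 45.1 CPM, with wide intervals at these levels. *Ptn* (pleiotrophin, a heparin-binding growth factor) was highest at 7 dpi, at 126, 455 and 252 CPM for the *Gli1*+ sort and 90.3, 494 and 188 CPM for the *Gli1*- sort. Endothelial cells held 212 and 319 CPM at 7 dpi. Its relative *Mdk* (midkine) was 44.3, 182 and 292 CPM. Of the pleiotrophin and cyclic AMP genes 3 of 6 were higher and 1 lower at 7 dpi and 2 of 6 higher and 0 lower at 21 dpi. Over all counted genes 11.5 and 8.92% were higher and 16.4 and 15.4% lower. At 2 times or more the endothelial level 2 of 2 were higher at 7 dpi (*Ptn* and *Mdk*) and 2 of 3 at 21 dpi (*Mdk* and *Creb3*). For all genes at that level 10.6 and 19.3% were higher.

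Imprinted growth genes were higher in 2 of 8 cases at 7 dpi and 5 of 8 at 21 dpi, and lower in 0 at either time. Over all counted genes 11.5 and 8.92% were higher. At 2 times or more the endothelial level 0 of 1 and 4 of 6 were higher, where 10.6 and 19.3% of all genes at that level were. *H19*, an imprinted RNA of growing tissue, was 1.46, 81.6 and 79.9 CPM in *Gli1*+ cells, and endothelial cells held 113 CPM at 7 dpi, above the chosen cells, and 16.8 CPM at 21 dpi. *Meg3* was 309, 357 and 625 CPM. Cell cycle genes were near the detection limit, since 1 to 3 of the 18 cell cycle genes passed the count minimum in any comparison and *Mki67* was 1.95, 9.16 and 2.90 CPM in *Gli1*+ cells. Early response and heat shock genes, which respond to tissue dissociation, were lower in 6 of 23 cases at 7 dpi and 5 of 23 at 21 dpi and higher in 0 and 1, where 16.4 and 15.4% of all counted genes were lower. *Fos* was 9939, 5601 and 6130.3 CPM in *Gli1*+ cells and 3864, 3893 and 3608 CPM in endothelial cells. Core clock genes were lower in 4 of 13 cases at 7 dpi and 3 of 12 at 21 dpi and higher in 1 and 0, with *Dbp* at 65.2, 171 and 75.4 CPM (93.8 CPM in endothelial cells at 7 dpi) and *Arntl* at 62.7, 9.16 and 41.4 CPM. The hour of harvest was not given in the labels. Glycolysis and hypoxia genes were higher in 5 of 10 cases at 7 dpi and 5 of 11 at 21 dpi, none at 2 times the endothelial level, and lower in 2 (*Pfkp* and *Adm*) and 1 (*Adm*).

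**Figure D4:**
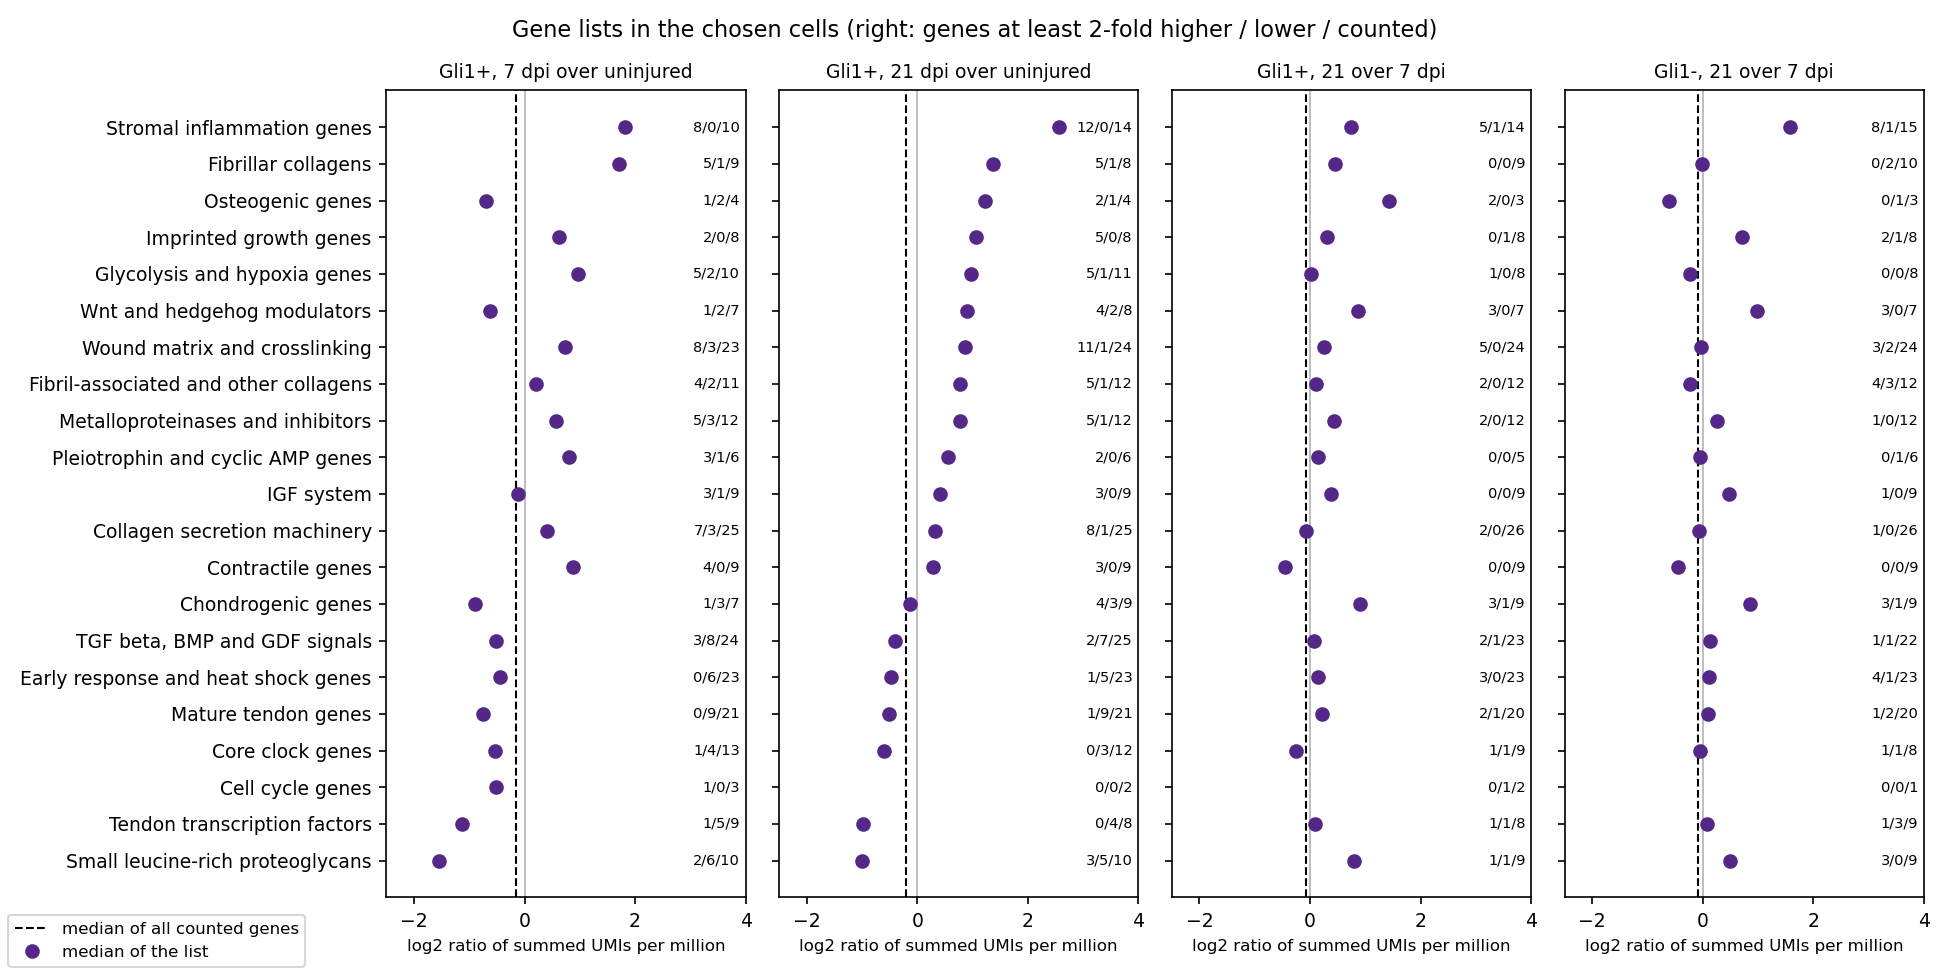
Median log2 ratio of each of 21 gene lists in the chosen cells (purple dots; lists with fewer than 3 counted genes have no dot) for 4 comparisons, with the median of all counted genes (dashed line) and, at the right, genes at least 2-fold higher, lower and counted. Against uninjured tendon the small leucine-rich proteoglycans and tendon transcription factors lay lowest and the stromal inflammation genes and fibrillar collagens highest, with none of the genes called higher in either list at 2 times the endothelial level at 7 dpi.

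Between 21 and 7 dpi both sorts could be compared. In *Gli1*+ cells 137 of 3506 counted genes (3.91%) were higher and 159 (4.54%) lower at 21 dpi, and in *Gli1*- cells 219 of 3796 (5.77%) were higher and 244 (6.43%) lower. Of 3321 genes counted in both, 88 were higher in both and 82 lower in both, out of 127 and 180 higher and 120 and 156 lower in the *Gli1*+ and *Gli1*- cells, and 0 were called in opposite directions. Among genes at 2 times or more the endothelial level, 76 of 559 (13.6%) were higher in *Gli1*+ and 84 of 574 (14.6%) in *Gli1*- cells, and 52 (9.3%) and 108 (18.8%) were lower. The sorts came from the same time groups of mice, so this is no independent repeat. Sex also differed between the 7 and 21 dpi libraries in both sorts, so it cannot be told apart from time here.

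Some genes were highest at 7 dpi. *Gng11*, a G protein gamma subunit, was 266, 987 and 335 CPM for the *Gli1*+ sort and 166, 1320.3 and 396 CPM for the *Gli1*- sort. Cells with both *Scx* and *Ly6a* held 217 and 188 CPM of it at 7 dpi and endothelial cells, which express it, 573 and 627 CPM. *Bst2* (tetherin, an interferon-induced protein) was 109, 313 and 30.7 CPM in *Gli1*+ cells, with 386 CPM in endothelial cells at 7 dpi. *Syngr1* and *Ifi27l2a* were also among the 12 lowest ratios of 21 to 7 dpi.

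*Chodl* (chondrolectin, a membrane lectin) was higher in the chosen cells than in cells with both *Scx* and *Ly6a* in every library. It was 311, 412 and 104 CPM for the *Gli1*+ sort and 331, 476 and 102 CPM for the *Gli1*- sort. Cells with both *Scx* and *Ly6a* held 52.9, 27.0 and 14.9 CPM for *Gli1*+ and 225, 17.0 and 9.59 CPM for *Gli1*- in the respective libraries, and endothelial cells at most 7.10 CPM. The log2 ratio of 21 to 7 dpi was -1.99 (-2.22 to -1.77) among *Gli1*+ and -2.22 (-2.62 to -1.84) among *Gli1*- cells. *Dgkb*, *Eya4*, *Gnai1*, *Heg1*, *Pdlim1* and *Rapgef4* were also among the genes ranked lowest at 21 against 7 dpi, with *Eya4* at 148 and 47.6 CPM and *Gnai1*, an inhibitory G protein subunit that lowers cyclic AMP, at 112 and 36.9 CPM in *Gli1*+ cells.

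Ranked highest at 21 against 7 dpi in both sorts were *Saa3*, *Slpi*, *Hp*, *Mmp3*, *Crabp2*, *Clu*, *Plac9*, *Serpine2*, *Rbp4*, *Acan*, *Lsamp* and *Ctla2a*. After thinning, the log2 ratio of *Slpi* in *Gli1*- cells was 0.90 and no longer 2-fold. *Clu* (clusterin, a secreted chaperone) and *Plac9* were lowest at 7 dpi in *Gli1*+ cells, with 213, 32.5 and 194 CPM of *Clu* and 380.3, 95 and 543 CPM of *Plac9*. Endothelial cells of the *Gli1*+ library at 21 dpi held 187 and 391 CPM of these genes. *Serpine2* (a serine protease inhibitor) was 16.0, 20 and 201 CPM in *Gli1*+ chosen cells and 146 CPM in endothelial cells at 21 dpi. *Ctla2a* was 189.9 and 705 CPM at 7 and 21 dpi in *Gli1*+ chosen cells, with 1514 and 2017 CPM in endothelial cells, which hold more of it.

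The sorts of a time point were also compared. At 7 dpi 65 of 3653 counted genes (1.78%) were higher and 67 (1.83%) lower in *Gli1*+ than in *Gli1*- chosen cells. The higher genes include epidermal genes that were not read as expression, such as *Krt14* at 935 against 6.26 CPM and *Lgals7* at 1055 against 6.26 CPM, where endothelial *Gli1*+ cells held 1071 CPM of *Lgals7*. At 21 dpi 8 of 3382 (0.237%) were higher and 21 (0.621%) lower, and these 29 calls moved between 15 and 209 with the choice of cells. Of the mature tendon genes *Col22a1* and *Cd200* were lower in *Gli1*+ cells at 7 dpi, and *Myoc* was higher in *Gli1*+ cells at 21 dpi (65.9 against 19.5 CPM). *Mmp13* was lower in *Gli1*+ cells at 7 dpi, with a log2 ratio of -1.11 (-1.29 to -0.93), and *Spp1* was higher in *Gli1*+ cells at 21 dpi, with a log2 ratio of 1.03 (0.92 to 1.14). The 5 highest cells held 55.4% of the *Gli1*+ and 65.4% of the *Gli1*- *Spp1* UMIs, and without the highest 2% of cells in each library the levels were 811 and 521 CPM, less than 2-fold apart. For *Col1a1* these log2 ratios were -0.08 (-0.13 to -0.04) and 0.41 (0.39 to 0.44). The 51 *Gli1*- cells at 7 dpi limit the precision of that comparison.

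Cells with both *Scx* and *Ly6a*, which differ from the chosen cells by the rule itself, held less *Tnmd* and *Thbs4* in every library. *Tnmd* was 374, 174 and 523 CPM in these cells of the *Gli1*+ libraries, and *Thbs4* 2924, 1107 and 2525 CPM. Thinned to equal depth, *Tnmd* was found in 75%, 75% and 70.0% of the chosen cells, 32.7%, 23.9% and 43.4% of the cells with both genes, and 0.872%, 4.07% and 3.05% of endothelial cells. The unthinned shares were 90.8%, 88.7% and 84.0% of the chosen cells. Among injury genes the cells with both *Scx* and *Ly6a* held more of some and less of others at 7 dpi. They held *Col3a1* at 11032 CPM, *Postn* at 3327 CPM, *Tnc* at 2054 CPM and *Acan* at 173 CPM in the *Gli1*+ library, each above the chosen cells, and *Fn1* at 2559 CPM and *Spp1* at 341 CPM, both below them. *Sparc* at 9492 and *Cthrc1* at 1098 CPM were also below the chosen cells there. *Mmp13* was higher in the chosen cells at 7 dpi, at 591 against 115 CPM in *Gli1*+ and 1277 against 79.9 CPM in *Gli1*- libraries, and not at 21 dpi, when cells with both genes held 1236 and 1686 CPM. Both groups of cells were cut by measured genes, so these values are a description.

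The chosen cells were not uniform. The middle 50% of *Gli1*+ cells held *Tnmd* between 382 and 1649 CPM in uninjured tendon, 396 and 1474 at 7 dpi, and 298 and 1806 at 21 dpi. For *Col1a1* the median cell held 2799.8, 12177 and 16684 CPM, with the upper quartile in uninjured tendon, 6966, below the lower quartile at 7 dpi, 8405. The median uninjured *Gli1*+ cell held no *Col3a1*, and the median cell at 7 and 21 dpi held 3992 and 4006 CPM. The range between quartiles of *Col3a1* was wider at 21 dpi (1319.9 to 8215) than at 7 dpi (2785 to 5818).

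*Comp* and *Chad* were compared cell by cell. After thinning, *Comp* was found in 79.9% of *Gli1*+ uninjured cells with *Chad* and 34.8% of those without, in 76.4% and 38.9% at 7 dpi, and in 80.9% (71.4 to 88.2%) and 66.3% (59.2 to 72.9%) at 21 dpi, where the intervals overlap. In *Gli1*- cells the shares with and without *Chad* were 66.7% and 52.4%, 77.8% and 38.5%, and 93.3% and 62.7% in time order, with intervals that overlap in uninjured tendon and at 7 dpi. *Chad* itself was found in 64.1%, 27.0% and 32.4% of *Gli1*+ and 53.3%, 18.8% and 28.6% of *Gli1*- chosen cells, and in at most 2.79% of endothelial cells. At 21 dpi *Kera* was found in 30.5% of *Gli1*+ cells with *Tnmd* and 9.20% without, but in 16.2% and 16.0% of *Gli1*- cells, and in *Gli1*- uninjured tendon in 13.3% and 20% of cells. *Acan* was found in 13.3% of *Gli1*+ cells at 21 dpi with *Tnmd* (8.95 to 18.8%) and 25.3% without (16.6 to 35.7%), intervals that overlap. *Thbs4* was found in 97.0% of *Gli1*+ cells with *Tnmd* and 79.3% without at 21 dpi, and in 96.2% and 60% of *Gli1*- cells. In uninjured *Gli1*+ tendon these were 98.4% and 93.5%. Cells of a library are no replicates, and the cells with and without a gene were not compared by a test.

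**Figure D5:**
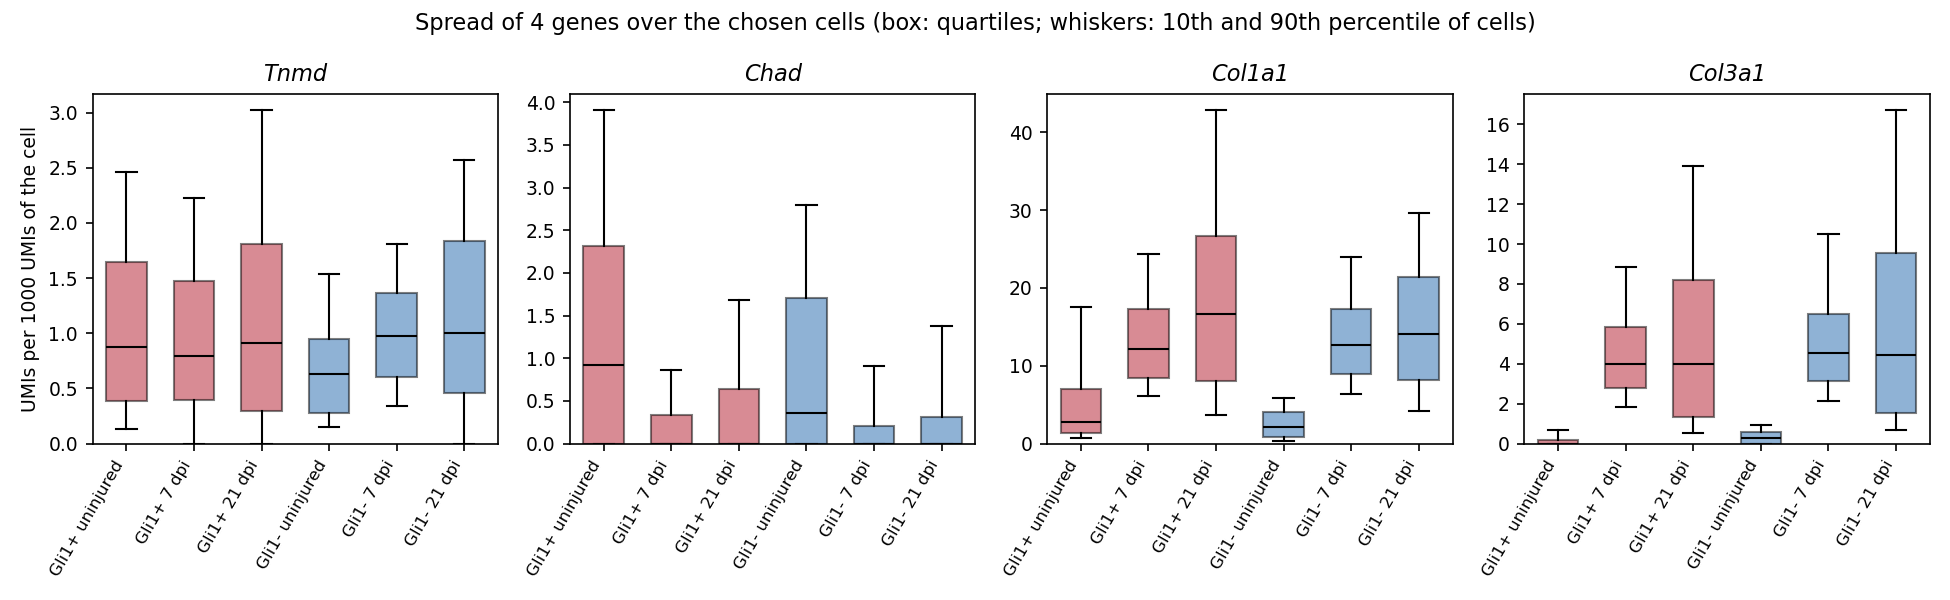
UMIs per 1000 UMIs of each chosen cell for *Tnmd*, *Chad*, *Col1a1* and *Col3a1* in the 6 libraries, with boxes at the quartiles, lines at the medians and whiskers at the 10th and 90th percentile of cells. The boxes of *Tnmd* overlap over all 6 libraries, while those of *Col1a1* and *Col3a1* in *Gli1*+ uninjured tendon lie below those at 7 and 21 dpi.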

How the data were processed

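Single-cell RNA-seq was made from sorted *Gli1*+ and *Gli1*- cells of mouse Achilles tendon with the Chromium Single Cell 3' v3 kit, 1 library for each of 6 conditions. The authors deposited raw UMI counts per gene and barcode for each library. The submitters' processing notes name Cell Ranger 3.1.0, STAR and the mm10 build, while the matrix headers name Cell Ranger 9.0.0, and the difference could not be settled. The chosen cells and the gene lists were selected with earlier results of these data known. Counts were summed over the chosen cells per library, scaled to 1000000 UMIs, and given exact Poisson and conditional binomial 95% intervals, with 0.5 UMI added for log2 ratios. The interval code was tested on simulated counts. With 1 library per condition no test was run, and mice cannot be told apart within a pool. Genes ranked by log2 ratio needed 100 CPM in the higher library, and the 12 highest and 12 lowest were named, without mitochondrial, ribosomal, sex-linked and unnamed genes, *Cntn5* and the genes of the rule. A gene that the ranking named is not reported here. Ratios of 21 to 7 dpi were ranked by the smaller of the sorts. Doublet scores came from Scrublet in scanpy 1.11.5, and scaling by trimmed means from edgeR 4.0.16 in R 4.3.3. Intervals used scipy 1.17.1. Alternatives covered depth, thresholds, scaling, doublets, shared barcodes and other markers. Intervals and limits cover counting error only.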

Additional observations from a re-analysis of the deposited data

How the results depend on the processing

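No paired analysis was run, since each condition had 1 library and which mice entered each library was not given. The share of chosen cells among kept barcodes, in the order *Gli1*+ and *Gli1*- at uninjured, 7 and 21 dpi, was 2.18, 0.215, 1.57, 0.339, 1.53 and 0.432% with at least 2 *Scx* UMIs and 2.76, 0.552, 2.74, 1.06, 3.16 and 1.5% after thinning. With *Fmod* at 0.2% or more it was 1.51 and 0.294% at 7 dpi and 1.76 and 0.490% at 21 dpi. The lower quartile of *Fmod* in the chosen cells was 0.471% (*Gli1*+) and 0.297% (*Gli1*-) of UMIs in uninjured tendon, above this threshold. It was 0.163 to 0.189% in the injured libraries, below the threshold. The uninjured shares were thus reduced less by it than the injured ones. In *Gli1*+ cells 1126 of 4036 counted genes were called at 7 dpi over uninjured and 957 of 3936 at 21 dpi over uninjured. For 21 over 7 dpi these were 296 of 3506 (*Gli1*+) and 463 of 3796 (*Gli1*-). For *Gli1*+ over *Gli1*- they were 132 of 3653 at 7 dpi and 29 of 3382 at 21 dpi. With no minimum level the counts were 6796 of 18407, 8109 of 18624, 5445 of 17629, 4422 of 15340, 3714 of 16086 and 3444 of 17119. A filter for genes at 2 times or more the endothelial level was chosen after seeing the data. In the order above it gave 288 of 662, 384 of 820, 128 of 559, 192 of 574, 37 of 451 and 18 of 602. These were 43.5, 46.8, 22.9, 33.4, 8.20 and 2.99% of the genes counted, so the filter left fewer genes with a larger share called. A minimum of 100 UMIs gave 166 of 1987 for 21 over 7 dpi in *Gli1*- cells and 52 of 2508 for the sorts at 7 dpi. In *Gli1*+ cells over uninjured tendon, *Fmod* at 0.2% gave 1170 of 4011 at 7 dpi and 770 of 3867 at 21 dpi. The mean of per-cell CPM gave 1280 of 4112 and 777 of 3959, and thinning 1394 of 4154 and 1085 of 4035. For the sorts at 7 dpi, *Fmod* at 0.2% gave 264 of 3713 and the mean of per-cell CPM 202 of 3683. For the sorts at 21 dpi the counts were 79 of 3424 with *Fmod* at 0.2%, 75 of 3469 with 2 *Scx* UMIs and 89 of 3526 after thinning. They were 209 of 3487 with cells holding markers of other types screened out. With the highest 2% of cells per gene left out (chosen after seeing the data) 15 of 2877 were called. *Ibsp* at 7 dpi over uninjured, at a log2 ratio of -6.39, was 0.40 with *Fmod* at 0.2%, 2.98 with 2 *Scx* UMIs, 1.21 after thinning and 0.78 without the highest 2% of cells. The 357 UMIs in 1 uninjured cell set the first value. No list median reversed in the settings run. Screening left 0 *Gli1*+ cells at 7 dpi, so it gave no value there. After thinning, the log2 ratio of *Slpi* at 21 over 7 dpi in *Gli1*- cells was 0.90 against 4.24, and the median of the stromal inflammation list 0.13 against 1.58. Causes were not tested.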
